A study of Mus musculus with 16 samples.

Results

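The proteasome subunit genes of the liver were taken as the protein-coding mouse genes whose symbol begins with Psma, Psmb, Psmc, Psmd or Psme followed by a number. Of 35275 gene IDs in the deposited table, 45 met this rule, and 4 matching pseudogenes were left out. Values are FPKM, the fragments counted per kilobase of gene and scaled to the fragments counted in the library, so that levels of different genes can be set against each other. The tests took genes that reached 1 FPKM in 4 or more of the 16 libraries, as 42 of the 45 did. The other 3 were Psma8, a germ-cell form of an alpha subunit, at most 1.18 FPKM, Psmb11, the catalytic subunit of the thymus, at most 0.0193 FPKM, and Psmc3ip, at most 0.904 FPKM. Psmc3ip shares the letters of the symbol but encodes a meiotic recombination protein and is not a subunit.

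The 16 libraries were made from total RNA of mouse liver. They fall into 4 groups of 4: mice labelled wild type (WT) on the control diet, WT mice on the ethanol (EtOH) diet, and mice with a liver knockout of Zfp36l1 (labelled L1 LKO, here LKO) on each of these diets. Zfp36l1 encodes an RNA-binding protein that speeds the decay of mRNAs with AU-rich elements. The labels used here give no sex, age, strain, Cre driver, diet composition or feeding time, and each library has a title of its own with no word on pairing. The p-values therefore measure the spread between these libraries.

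The 26S proteasome is the protease that degrades proteins tagged with ubiquitin. Its 20S core is a barrel of alpha and beta rings, in which Psmb5, Psmb6 and Psmb7 encode the constitutive catalytic subunits and Psmb8, Psmb9 and Psmb10 the immune subunits that replace them in the immunoproteasome. The 19S cap holds an ATPase ring (Psmc genes) and further base subunits that unfold the substrate, and a lid that removes the ubiquitin chain. Other activators of the core are encoded by the Psme genes. Interferon gamma is known to induce the immune subunits, Psme1 and Psme2, while the transcription factor Nrf1 (Nfe2l1) is known to raise constitutive subunit genes when proteasome activity falls, and chronic ethanol feeding is known to lower proteasome activity in rodent liver.

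The libraries differed in ways that touched the subunit genes. Library 2 of the WT ethanol group stood apart, with 9890475 reads in total against 19069903 to 24768569 in the other 15, mitochondrial genes at 22.5% of reads against 3.64% to 6.97%, and a median Spearman correlation with the other libraries of 0.691 against 0.905 to 0.951. In that library 13 of the 42 subunit genes lay above all other 15 libraries, against 13.6% of all genes tested, and 15 lay below all of them, against 52.3%. Psmb10 and Psmb8 were 6.69 and 6.66 times the mean of the other 3 WT ethanol libraries there, and Psma1, at 12.3 FPKM, was 0.153 times that mean. Results are therefore given with and without it. Within the groups, the other 15 libraries also fell on either side of a first principal component over all genes tested, which held 40% of the variance within groups and put libraries 1 and 2 of each group on one side and libraries 3 and 4 on the other. The labels name no batch for this split. The knockout held in each library, with Zfp36l1 at 0.572 to 1.76 FPKM in LKO and 9.30 to 25.5 FPKM in WT. The summed hepatocyte markers (Alb, Apoa1, Ttr and 3 others) ranged from 41258 to 72398 FPKM over all libraries, and were lowest in WT ethanol libraries 3 and 4, at 50572 and 41258 FPKM. Outside WT ethanol library 2, Alb alone ranged from 27582 to 60924 FPKM and weighed most. In WT without that library, Alb, Ttr and Serpina1c differed by -0.40, -0.66 and -0.59 on ethanol. Apoa1, Cyp3a11 and Hnf4a differed by 0.21, 0.093 and 0.13, and none of these markers passed. WT ethanol libraries 3 and 4 also held the highest sums of the 5 stellate cell markers (such as Lrat and Col1a1), at 29.4 and 42.4 FPKM against 7.54 to 17.6 FPKM in the other 14, and the part of these cells in the WT differences was not tested.

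Most constitutive core genes lay above most genes of the 19S cap. By the median of the 8 control-diet libraries, the 14 constitutive genes of the 20S core ran from 41.8 FPKM for Psma5 to 146 FPKM for Psmb1, a 3.48-fold range, and 11 of them lay above the 90th percentile of the genes tested. The 17 base and lid genes of the 19S cap ran from 17.7 FPKM for the ATPase gene Psmc2 to 68.3 FPKM for the lid gene Psmd8, a 3.86-fold range. The immune catalytic genes stood at 8.52 to 41.3 FPKM, the genes of the 19S assembly helpers at 6.51 to 17.5 FPKM, and the other activators at 4.54 to 86.3 FPKM. The highest immune gene, Psmb10 at 41.3 FPKM, thus lay within the range of the 19S genes, and the highest activator gene, Psme2 at 86.3 FPKM, above all of them and within the range of the core. In the 15 libraries other than WT ethanol library 2, the subunit genes together took 0.256% to 0.507% of the reads.

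**Figure D1:**
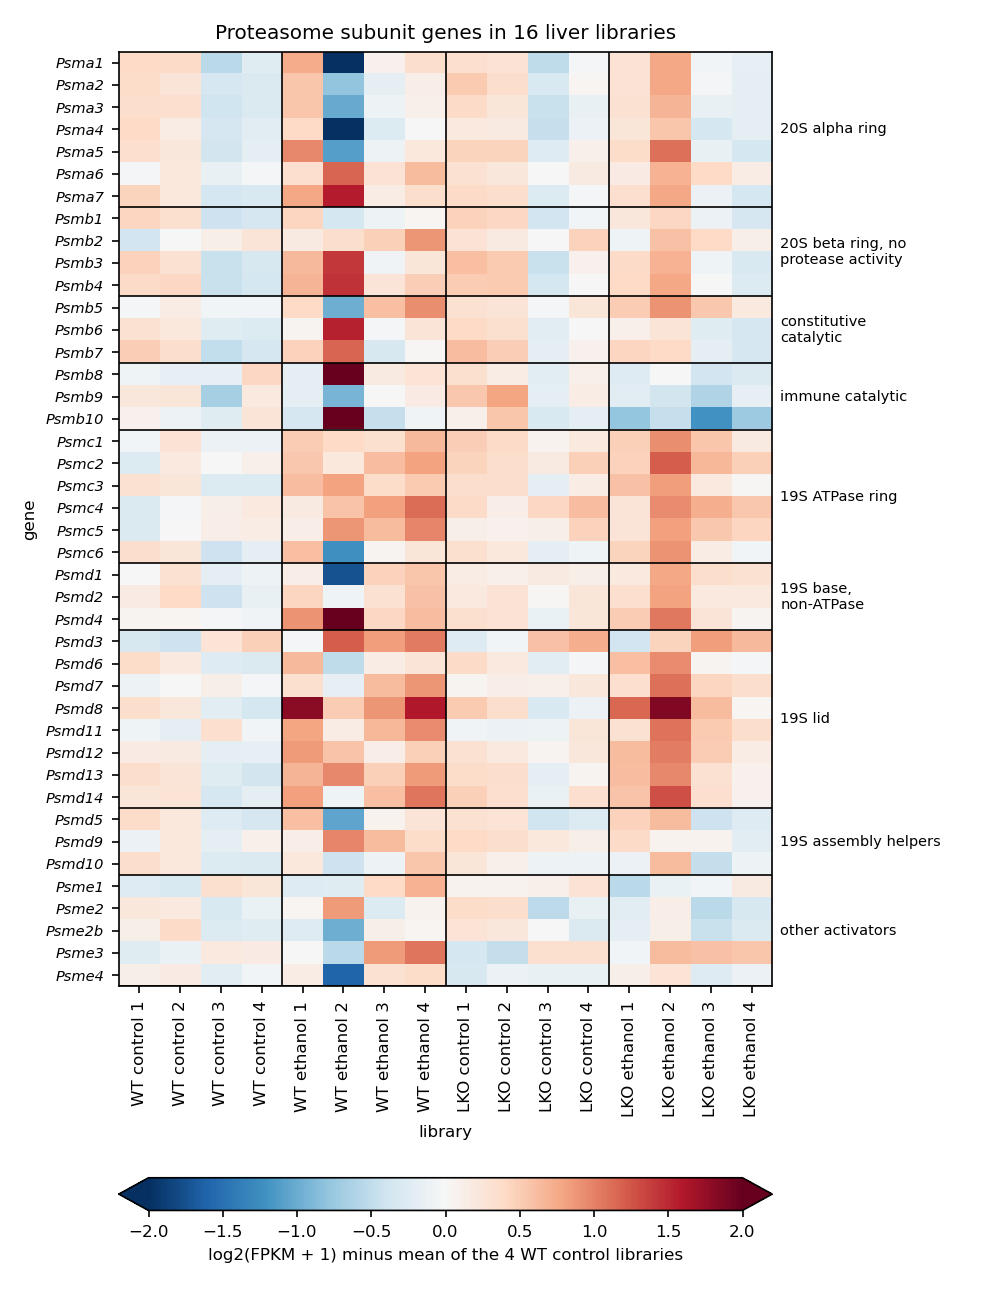
Each row is 1 of the 42 subunit genes and each column 1 of the 16 libraries; colour gives log2(FPKM + 1) minus the mean of the 4 WT control libraries, cut at 2 in either direction, and black lines part the gene classes and the groups. WT ethanol library 2 stands out in most classes, the 20S alpha ring follows the split between libraries 1 and 2 and libraries 3 and 4, and the 19S ATPase and lid genes are mostly above the WT control mean in the ethanol libraries of both genotypes.

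Psmd8 and Psmd11, both genes of the 19S lid, rose with ethanol when the diets were compared over the mean of both genotypes. They were 2 of 42 subunit genes (4.76%) to pass the test upwards (adjusted p under 0.05), about the share of all 11298 genes tested (4.59%), and none passed downwards, against 3.19%. Psmd8 (ENSMUSG00000030591, GRCm38 chr7:29174188-29180701, minus strand) encodes the lid subunit Rpn12, which joins last when the lid is assembled. In WT control libraries it stood at 84.1, 76.5, 55.8 and 51.4 FPKM, and on ethanol at 232, 93.3, 122 and 200 FPKM. The LKO values were 95.1, 83.9, 52.8 and 60.1 FPKM with the control diet and 146, 240, 103 and 67.6 FPKM with ethanol. The WT diets did not overlap, and in LKO 1 ethanol library lay among the controls. The difference over both genotypes was 1.002 (SE 0.27, adjusted p = 0.0307) on the log2(FPKM + 1) scale, a scale that understates changes of low genes, and 1.12 (SE 0.25, adjusted p = 0.00566) without WT ethanol library 2.

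Psmd11 (ENSMUSG00000017428, chr11:80428615-80473248, plus strand) encodes Rpn6, the lid subunit that clamps the lid to the 20S core. It stood at 22.4, 20.8, 30.7 and 23.0 FPKM with the control diet and 42.0, 26.6, 38.7 and 46.8 FPKM with ethanol in WT. In LKO it stood at 22.8, 22.04, 22.3 and 28.6 FPKM with the control diet and 29.8, 51.8, 35.1 and 30.9 FPKM with ethanol. The LKO diets did not overlap, and in WT only ethanol library 2 lay below the highest control library. The difference was 0.60 (SE 0.18, adjusted p = 0.0435), and 0.69 (SE 0.14, adjusted p = 0.00317) without WT ethanol library 2. Both calls sat near the threshold: with each of the 16 libraries left out in turn, that of Psmd8 was lost in 7 fits (adjusted p 0.00566 to 0.0700) and that of Psmd11 in 12 (adjusted p 0.00317 to 0.0983). Neither gene passed without WT control library 4, WT ethanol library 4, LKO control library 3 or 4, or LKO ethanol library 2, and no subunit gene did.

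The other base and lid genes of the 19S cap with a Psmc or Psmd symbol lay on the same side. All 17 had a difference above 0 over both genotypes, with a median of 0.44 against 0.02 over all genes tested. Without WT ethanol library 2, a choice that also moved the median of all genes to 0.11, the 17 stayed above 0 with a median of 0.45, and 10 of them rose. These were Psmc2, Psmc4 and Psmc5 of the ATPase ring, the ubiquitin receptor gene Psmd4, and 6 lid genes, Psmd7, Psmd8, Psmd11, Psmd12, Psmd13 and Psmd14, the last of which encodes the deubiquitinase of the lid. Over all 42 subunit genes, 12 rose in that fit (28.6%), against 14.8% of all genes, and 1 fell (Psmb10), against 5.7%. The remaining 2 that rose were Psmb5 of the core and the activator gene Psme3. With quantile normalization in that fit, which balanced higher and lower calls over all genes, Psmd4, Psmd12, Psmd13, Psmd14 and Psme3 no longer passed, and Psma6 and Psmc1 did. The symbol rule leaves out 2 further cap subunits, the ubiquitin receptor gene Adrm1 and the lid gene Sem1. Adrm1 differed by 0.55 over both genotypes with all libraries and 0.58 without library 2, and Sem1 by 0.020 and -0.029, and neither passed.

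**Figure D2:**
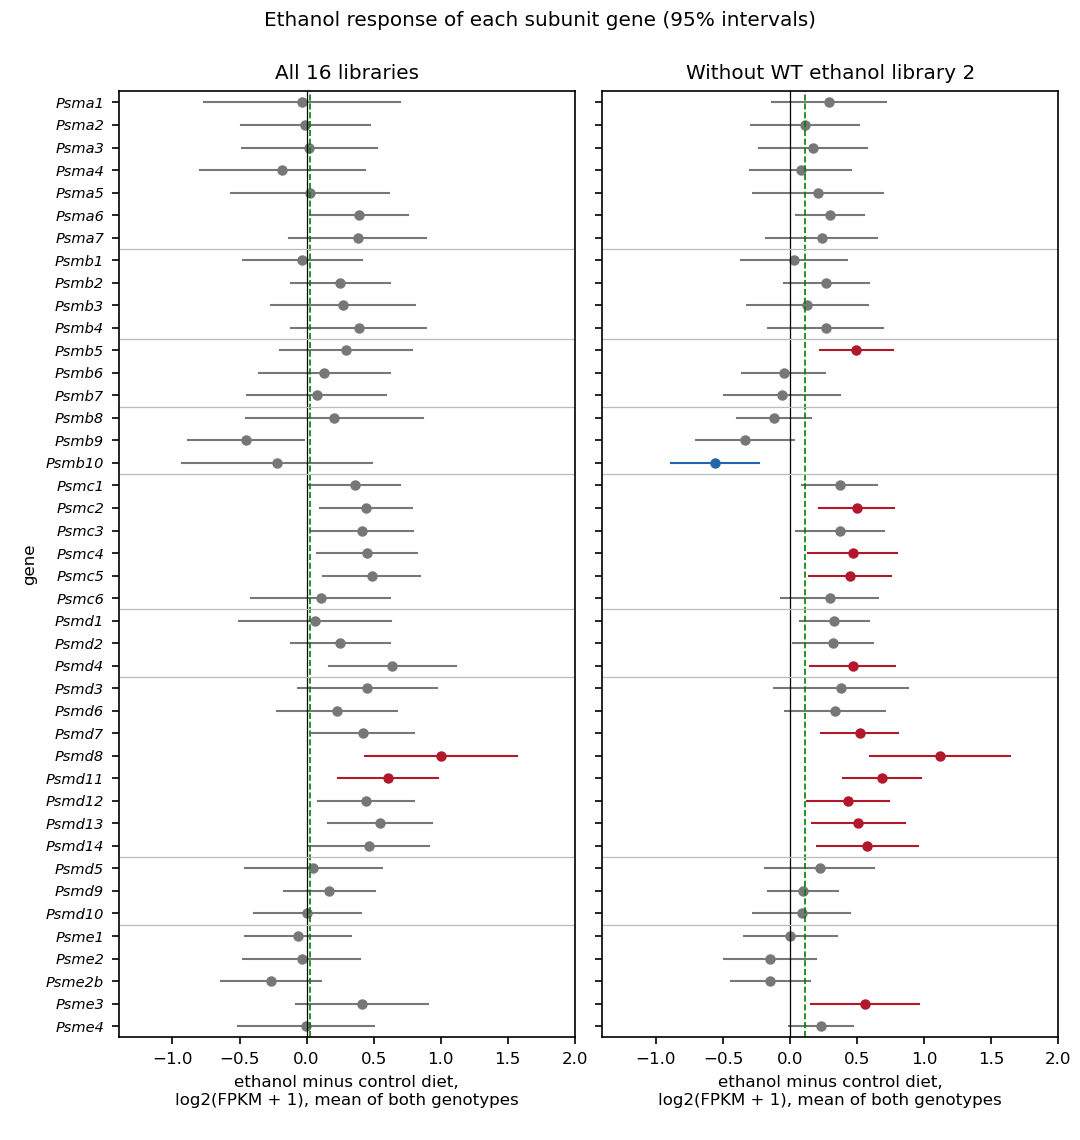
Points are the ethanol minus control difference of each subunit gene in log2(FPKM + 1), as the mean of both genotypes, with 95% intervals, with all 16 libraries on the left and without WT ethanol library 2 on the right; red and blue mark genes that rose or fell at an adjusted p under 0.05, and the dashed line is the median of all genes tested. The 17 base and lid genes (Psmc1 to Psmd14) lie to the right of 0 in both panels, and Psmb10 lies to the left in both.

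In the ATPase ring, Psmc2 and Psmc5 had the smallest p over both genotypes. Psmc2 stood at 12.6, 17.8, 15.4 and 16.6 FPKM with the control diet and 22.9, 18.03, 24.3 and 27.8 FPKM with ethanol in WT, and these did not overlap. In LKO it stood at 21.5, 19.98, 17.6 and 21.98 FPKM with the control diet and 21.6, 37.0, 25.1 and 21.9 FPKM with ethanol, which overlapped. Its difference over both genotypes was 0.44 (SE 0.16, adjusted p = 0.109) with all libraries and 0.50 (SE 0.13, adjusted p = 0.0153) without WT ethanol library 2. Psmc5 stood at 32.3, 40.1, 43.9 and 44.6 FPKM with the control diet and 43.7, 74.3, 62.6 and 79.9 FPKM with ethanol in WT. The LKO values of Psmc5 were 43.5, 42.6, 43.4 and 55.2 FPKM with the control diet and 47.7, 71.6, 58.4 and 54.2 FPKM with ethanol. Of the ethanol libraries, 1 in WT and 2 in LKO lay below the highest control. Its difference was 0.49 (SE 0.17, adjusted p = 0.0960), and 0.45 (SE 0.14, adjusted p = 0.0392) without that library.

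Psmd4 and Psmd2 encode 2 base subunits without ATPase activity, and WT ethanol library 2 weighed on the WT difference of Psmd4. Psmd4 encodes Rpn10, a receptor for ubiquitin chains, and stood at 36.5, 35.9, 34.6 and 33.3 FPKM with the control diet and 66.2, 145, 47.1 and 54.2 FPKM with ethanol in WT. It stood at 44.2, 43.2, 31.8 and 41.5 FPKM with the control diet and 50.5, 74.0, 41.9 and 36.3 FPKM with ethanol in LKO, where the diets overlapped. The WT difference was 0.99 (SE 0.32, adjusted p = 0.0902) with all libraries and 0.64 (SE 0.22, adjusted p = 0.0737) without library 2, which held the highest value. Psmd2 encodes the scaffold Rpn1, and stood at 52.5, 61.7, 34.9 and 42.4 FPKM in WT control and 63.4, 44.0, 58.0 and 71.0 FPKM in WT ethanol libraries. Its levels in LKO were 53.8, 57.7, 47.7 and 55.5 FPKM and 59.4, 82.8, 53.8 and 53.8 FPKM. The diets overlapped in both genotypes, and the difference of 0.25 (SE 0.18, adjusted p = 0.457) did not pass the test. With 1 library left out in turn it ran from 0.18 to 0.32. Over both genotypes Psmd2 passed only with the side term and without library 2, as 23.3% of all genes did upwards.

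The response was also taken within each genotype, where fewer libraries stand behind each value. In WT no subunit gene passed the test in either direction with all libraries at equal weight on the deposited scale (2.58% of all genes were higher and 1.59% lower). Of the 42, 13 had an unadjusted p under 0.05, against 19.7% of all genes. In 7 of the 42 genes all WT ethanol libraries lay above all WT controls (Psma6, Psmc1, Psmc2, Psmc3, Psmd4, Psmd8 and Psmd13), against 5.62% of all genes, and none lay wholly below, against 4.45%. Without library 2, Psmb5, Psmc2, Psmd8 and Psmd11 rose in WT, 9.52% of the subunit genes against 7.23% of all genes, and 11 of 42 had all ethanol libraries above all controls, against 15.6%. Psmd8 then differed by 1.43 (SE 0.36, adjusted p = 0.0238).

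In LKO no subunit gene passed the test with all libraries at equal weight (0.168% of all genes were higher and 0.257% lower), and 3 of 42 (Psmb9, Psmd8 and Psmd11) had an unadjusted p under 0.05, against 9.19%. All 17 base and lid genes had a difference above 0 there too, with a median of 0.31 against 0.06 for all genes. Psmd1, Psmd7 and Psmd11 had all ethanol libraries above all controls, against 8.15% of all genes, and Psmb10 had all below, against 4.14%. Psmd8 differed by 0.81 (SE 0.38, adjusted p = 0.542) in LKO and by 1.196 (SE 0.38, adjusted p = 0.0873) in WT. The difference between the genotypes' responses passed the test for 0 of 42 genes with limma, as for 0.0% of all genes tested, and 1 of the 42 (Psmd9) had an unadjusted p under 0.05, against 3.2%.

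**Figure D3:**
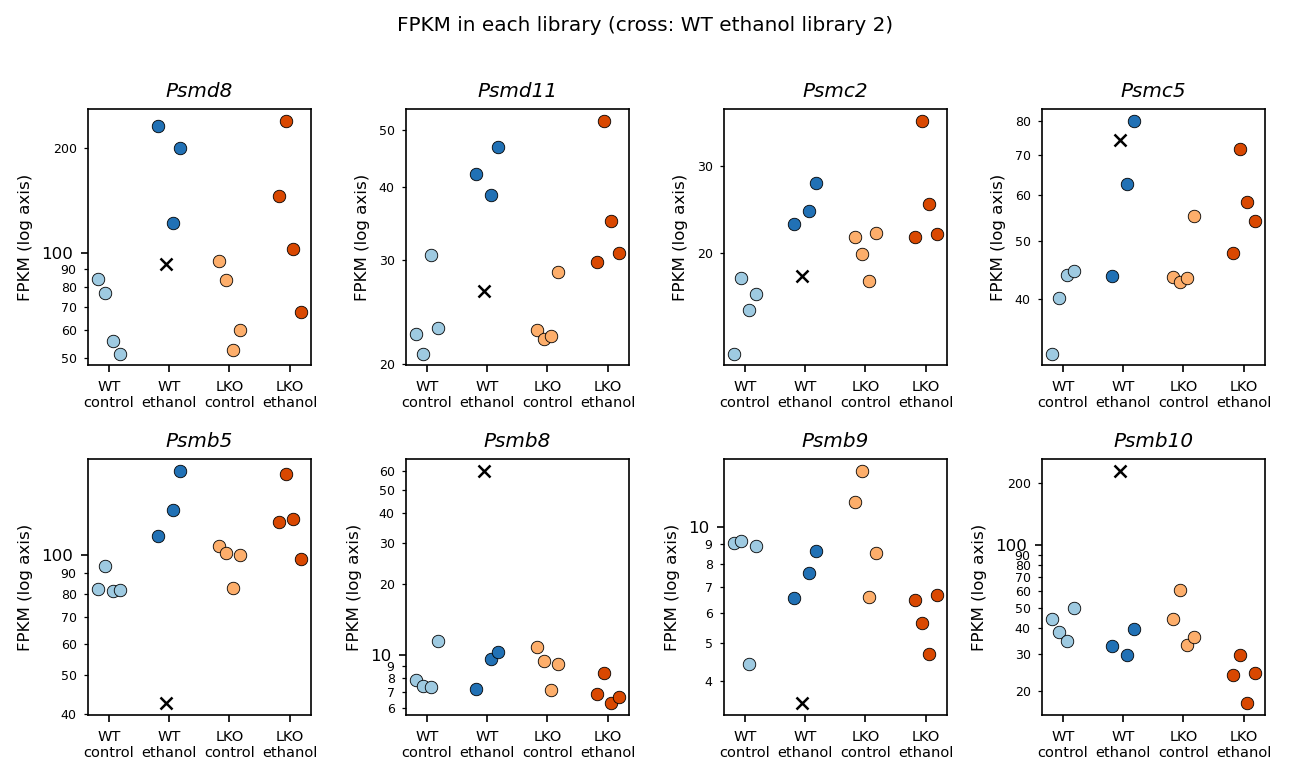
FPKM on a log axis in each of the 16 libraries for 8 subunit genes, with 1 point per library, colours for the 4 groups and a cross for WT ethanol library 2. Psmd8, Psmd11 and Psmc2 are higher on ethanol in most libraries, Psmb10 is lower on ethanol in each LKO library, and the cross lies far above the other points for Psmb8 and Psmb10 and far below them for Psmb5.

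In the constitutive 20S core no gene rose with ethanol with all libraries at equal weight, and Psmb5 did so without WT ethanol library 2. With library weights Psmb5 passed over both genotypes and in WT, where 28.0% and 31.3% of all genes were called higher. Of the 14 core genes, 10 had a difference above 0 over both genotypes with a median of 0.10, and none passed the test at equal weight. Without WT ethanol library 2 the count was 12 of 14 with a median of 0.19 against 0.11 for all genes. Psmb5 (ENSMUSG00000022193, chr14:54614119-54618022, minus strand) encodes the subunit with chymotrypsin-like activity. It stood at 82.3, 93.5, 81.4 and 81.7 FPKM with the control diet and 112, 42.6, 129 and 162 FPKM with ethanol in WT. In LKO the values were 105, 101, 82.4 and 99.8 FPKM and 121, 159, 123 and 97.3 FPKM. Ethanol library 2 was the lowest of all WT values and the other 3 lay above every WT control, while the LKO diets overlapped. The difference over both genotypes was 0.29 (SE 0.23, adjusted p = 0.522) with all libraries and 0.49 (SE 0.13, adjusted p = 0.0135) without library 2.

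The other constitutive catalytic genes did not pass the test. Psmb6, which encodes the subunit with caspase-like activity, ranged over 101 to 150 FPKM in WT control, 106 to 162 FPKM in LKO control and 96.1 to 146 FPKM in LKO ethanol libraries. Its WT ethanol values were 127, 356, 118 and 145 FPKM. Psmb7, which encodes the subunit with trypsin-like activity, stood at 162, 264, 94.1 and 119 FPKM in WT ethanol libraries and at 82.9 to 165.5 FPKM in WT controls. In LKO, Psmb7 ran over 103 to 181 FPKM on the control diet and 92.7 to 158 FPKM with ethanol. Library 2 held the highest WT ethanol value of both genes, and the diets overlapped in both genotypes. The differences over both genotypes were -0.049 (SE 0.15, adjusted p = 0.853) for Psmb6 and -0.062 (SE 0.20, adjusted p = 0.866) for Psmb7 without library 2, where both had been above 0 with it.

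Among the ring genes without protease activity, Psma6 and Psma7 had the smallest p of the alpha ring and Psmb4 and Psmb2 of the beta ring. With all libraries, Psma6 differed by 0.39 (SE 0.17, adjusted p = 0.195) and was 65.7 to 84.4 FPKM in WT controls against 88.9 to 164 FPKM with ethanol, without overlap. Psma7 differed by 0.38 (SE 0.24, adjusted p = 0.399), Psmb4 by 0.39 (SE 0.24, adjusted p = 0.383) and Psmb2 by 0.25 (SE 0.17, adjusted p = 0.457). None of the 4 passed the test with all libraries, or without library 2, in the fit of group means on the deposited scale. Without library 2, Psma6, Psma7 and Psmb4 passed once the split among libraries was a term of the fit, and Psma6 with quantile normalization. Psmb2 passed in WT with library weights. Psmb4 reached 314 FPKM in that library, against at most 195 FPKM in the other 15.

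The core genes also differed between the sides of the split among libraries. Comparing libraries 1 and 2 with libraries 3 and 4 within groups, 13 of the 14 core genes were higher on the first side, by a median of 0.62 in log2(FPKM + 1), while the median of all genes was -0.09. Psmd3 and Psme3 went the other way, at -0.81 and -0.59. With the side as a term and without WT ethanol library 2, 24 subunit genes (57.1%) rose with ethanol over both genotypes, against 23.3% of all genes, and Psmb10 alone fell (1 gene), against 9.32%. The 24 held all 17 base and lid genes of the 19S cap and 5 of the 14 core genes (Psma1, Psma6, Psma7, Psmb4 and Psmb5). Other measures moved with the side in the 15 libraries. The summed hepatocyte markers, in which Alb weighed most, were 65725 to 72398 FPKM on the first side and 41258 to 63162 FPKM on the second, without overlap. The mitochondrial share of reads was 4.70% to 6.97% and 3.64% to 4.75% in the same order. The side was read from these libraries and not from a label, so what it stands for was not tested. As a term it takes up the largest part of the spread within groups of the same values. Lower p-values over many genes thus follow from how it was made. With it the share of all genes called higher went from 14.8% to 23.3%, and that called lower from 5.7% to 9.32%. The calls with the side term are therefore no separate evidence of a rise.

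Within the sides, ethanol can be set against control 4 times, for each genotype on each side, with a single ethanol library on the first side of WT. In all 4, 16 of the 17 base and lid genes were above 0, the exception being Psmd1 with -0.02 on the first side of WT. The count was 8 of 14 for the constitutive core and 0 of 3 for the immune subunits. A share over all genes was not taken for these counts, and the genes of a class share the same libraries. Without WT ethanol library 2 the median difference of all genes was itself 0.17 in WT and 0.06 in LKO. The counts are therefore descriptions. Psmd8 differed by 1.52 and 1.52 in WT and by 1.06 and 0.56 in LKO on the first and second side, and Psmd11 by 0.93, 0.66, 0.78 and 0.37 in the same order.

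**Figure D4:**
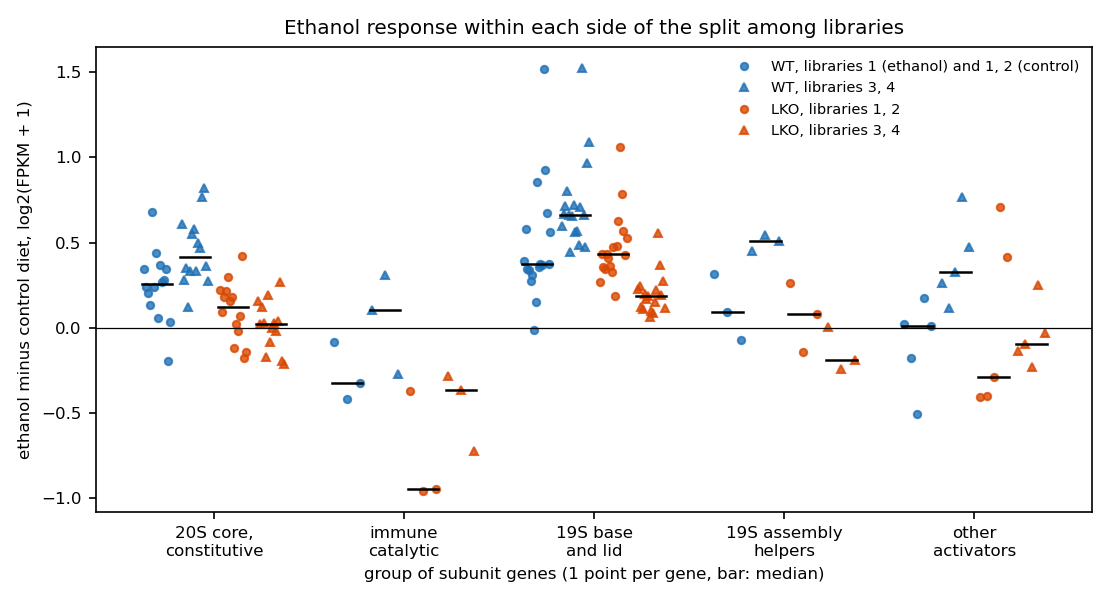
Each point is the ethanol minus control difference of 1 subunit gene in log2(FPKM + 1) within 1 genotype and 1 side of the split among libraries, without WT ethanol library 2, and bars are medians over the genes of a class. Of the base and lid genes of the 19S cap, 16 of 17 lie above 0 in all 4 comparisons, and no immune catalytic gene does. The share of all genes above 0 in all 4 was not taken.

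Without WT ethanol library 2 the core genes varied together more closely than the cap genes, and with it the order of the core and the cap turned. After group means were subtracted, the median pairwise Pearson r over the 15 libraries without WT ethanol library 2 was 0.96 in the alpha ring, 0.90 in the constitutive core, 0.56 among base and lid genes and 0.64 among the 3 immune genes, against 0.16 for all genes tested. With all 16 libraries it was 0.76 in the alpha ring, 0.32 in the core, 0.49 among base and lid genes and -0.29 among the immune genes, against 0.29 for all genes. These are descriptions: the genes share the same libraries, their depth and the split above.

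In LKO the immune catalytic genes did not share the direction of the 19S cap. There all 3 had a difference below 0 on ethanol, with a median of -0.66, and Psmb10 fell in the fit without WT ethanol library 2. Psmb10 (ENSMUSG00000031897, chr8:105935735-105938444, minus strand) encodes the immune counterpart of Psmb7. It stood at 44.3, 61.2, 33.3 and 36.3 FPKM with the control diet and 23.7, 29.8, 17.4 and 24.5 FPKM with ethanol in LKO. In WT the values were 44.1, 38.4, 34.7 and 49.8 FPKM and 32.7, 228, 29.8 and 39.5 FPKM. Each LKO ethanol library lay below each LKO control, while the WT diets overlapped and ethanol library 2 held the highest value of all 16. The LKO difference was -0.83 (SE 0.47, adjusted p = 0.665) with all libraries and -0.83 (SE 0.21, adjusted p = 0.0383) without WT ethanol library 2, which leaves the LKO values as they are and lowers the spread that the 4 groups share. It was the only subunit gene to fall in that LKO fit, against 1.40% of all genes, and over both genotypes it differed by -0.22 (SE 0.34, adjusted p = 0.770) with all libraries and by -0.56 (SE 0.15, adjusted p = 0.0190) without library 2. In WT none of the 3 immune genes passed: Psmb8 differed by 0.74, Psmb9 by -0.24 and Psmb10 by 0.39 with all libraries, and by 0.083, -0.012 and -0.29 without library 2. Within the sides Psmb10 was lower on ethanol in all 4 comparisons, with differences of -0.32 and -0.27 in WT and of -0.94 and -0.72 in LKO.

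Psmb8 and Psmb9 both lie in the major histocompatibility region on chromosome 17. Psmb8, the immune counterpart of Psmb5, stood at 7.89, 7.45, 7.36 and 11.5 FPKM with the control diet and 7.19, 60.4, 9.67 and 10.3 FPKM with ethanol in WT. The LKO values of Psmb8 were 10.8, 9.49, 7.14 and 9.15 FPKM with the control diet and 6.85, 8.45, 6.26 and 6.69 FPKM with ethanol. Psmb9, the immune counterpart of Psmb6, stood at 9.07, 9.16, 4.44 and 8.92 FPKM with the control diet and 6.56, 3.51, 7.58 and 8.63 FPKM with ethanol in WT. The LKO values of Psmb9 were 11.5, 13.9, 6.57 and 8.54 FPKM with the control diet and 6.47, 5.65, 4.70 and 6.66 FPKM with ethanol. The diets overlapped for both genes in both genotypes, and the LKO differences of -0.33 (SE 0.44, adjusted p = 0.953) and -0.66 (SE 0.29, adjusted p = 0.488) did not pass the test. With library weights Psmb9 passed as lower on ethanol, with Psmb10, in LKO and over both genotypes. Psmb9 overlaps Tap1 on the other strand (5.88 FPKM on average), and the strand setting of the counting is not given in the sources used here, so its values may hold reads of that gene.

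Immune subunits are abundant in leukocytes, so markers of these cells are given beside them. The 11 leukocyte markers (such as Ptprc, Cd74 and S100a8) summed to 43.3 to 62.6 FPKM in WT control, 37.0 to 95.7 in WT ethanol, 41.2 to 70.2 in LKO control and 28.7 to 53.1 in LKO ethanol libraries, and Cd8a and Ly6c2 were at 0 in at least 1 library. Cd74 alone ranged from 15.5 to 86.5 FPKM and weighed most in these sums. The markers tested did not share a direction on ethanol in LKO. Cd74, Ptprc, Cd3g and Nkg7 differed by -1.01, -0.26, -0.47 and -0.36, S100a8 and S100a9 by 1.41 and 0.92, and none passed with all libraries. The 6 macrophage markers (such as Clec4f and Cd68) summed to 91.7 to 270, 84.0 to 281, 94.2 to 315 and 50.9 to 307 FPKM in the same order. The part of these cells in the values of Psmb8, Psmb9 and Psmb10 was not tested, and in whole liver fewer cells of a type and less RNA per cell cannot be told apart.

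Each immune subunit was also set against the constitutive subunit it replaces, library by library. Psmb8 over Psmb5 was 0.0959, 0.0797, 0.0904 and 0.141 in WT control and 0.0645, 1.42, 0.0749 and 0.0639 in WT ethanol libraries. The LKO ratios were 0.103, 0.0937, 0.0866 and 0.0917 with the control diet and 0.0567, 0.0532, 0.0509 and 0.0687 with ethanol. In LKO all ethanol ratios were below all control ratios, and in WT the same held for the 3 ethanol libraries other than library 2. Psmb10 over Psmb7 was 0.246, 0.368, 0.321 and 0.292 in LKO control and 0.150, 0.192, 0.168 and 0.264 in LKO ethanol libraries, which overlapped. Psmb9 over Psmb6 lay between 0.0387 and 0.0914 in the 15 libraries other than WT ethanol library 2 and overlapped between diets in both genotypes. Outside that library, the immune form stayed below the constitutive form in all 3 pairs, with 0.538 the highest ratio. These ratios are descriptions and carry no test.

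**Figure D5:**
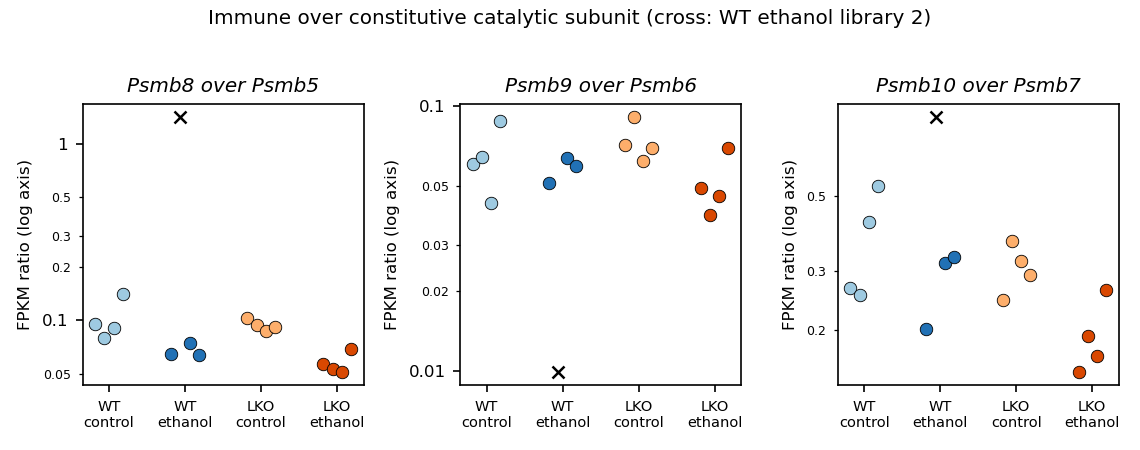
FPKM ratio of each immune catalytic subunit over its constitutive counterpart on a log axis, with 1 point per library, colours for the 4 groups and a cross for WT ethanol library 2. Psmb8 over Psmb5 is lower on ethanol in LKO without overlap, and the cross lies at 1.42 for that pair, far above the rest.

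The sequence just before the start of the subunit genes was searched for 3 short motifs named for pathways that act on these genes. The search covered the 250 bases upstream of each RefSeq start (GRCm38.p6), on both strands. The tables held 41 such windows for 38 of the subunit genes and 32851 windows in all. TGACNNNGC, the core of the antioxidant response element that Nrf1 and Nrf2 bind, lay in 5 of the 41 windows (12.2%), against 10.2% of all windows, and in both Psmb5 and Psmb6. The core of an interferon response element, a pair of GAAA repeats parted by NN, lay in 3 windows (7.32%), against 2.98%, of which Psmd4 is one. TTCNNNGAA, the interferon gamma activated site, lay in 1 window (2.44%), that of Psmb8, against 7.02%. The 4 stretches shown are those of genes described above, on the strand of the gene with the motif in capitals, in Psmd12 and Psmd4 as its reverse complement.
Psmb5, chr14:54618023-54618068, minus strand: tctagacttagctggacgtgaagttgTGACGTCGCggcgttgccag
Psmb6, chr11:70525322-70525356, plus strand: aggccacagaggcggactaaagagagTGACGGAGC
Psmd12, chr11:107479278-107479315, plus strand: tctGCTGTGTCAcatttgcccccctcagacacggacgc
Psmd4, chr3:95042659-95042720, minus strand: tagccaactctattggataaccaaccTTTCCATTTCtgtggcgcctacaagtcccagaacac
The motif begins 47 bases before the start of Psmb5, 9 bases before that of Psmb6, 247 bases before that of Psmd12 and 80 bases before that of Psmd4. Of these genes Psmb5, Psmd12 and Psmd4 rose with ethanol in the fit without WT ethanol library 2 and Psmb6 did not pass. Neither did Psmc6, Psmd9 and Psmb3, the other subunit genes with one of the first 2 motifs (Psmd9 holds both), nor Psmb8 with the third. Of the 5 genes with the first motif, Psmb5 and Psmd12 rose, and of the 3 with the second, Psmd4 alone. In that fit 12 of 42 subunit genes and 14.8% of all genes rose, and the 42 include genes without a window. With quantile normalization as well, Psmd12 and Psmd4 no longer passed. No test set the motifs against the differences. The windows of Psmd8 and Psmd11 held none of the 3 motifs. A match is a description of these letters and not a site of binding.

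The other activators did not move together. Psme1 and Psme2 encode the interferon-inducible activator that favours antigen processing, Psme3 its nuclear relative, and Psme4 a large nuclear activator. Psme3 stood at 12.03, 13.0, 16.7 and 16.3 FPKM with the control diet and 14.3, 9.60, 26.6 and 31.2 FPKM with ethanol in WT. The LKO values of Psme3 were 11, 10.0, 18.3 and 18.1 FPKM with the control diet and 13.9, 22.7, 22.1 and 21.6 FPKM with ethanol. The diets overlapped in both genotypes, with library 2 the lowest in WT. Its difference over both genotypes was 0.41 (SE 0.23, adjusted p = 0.339), and it passed the test without that library, at 0.56 (SE 0.19, adjusted p = 0.0483), but not with quantile normalization as well. Psme1 ranged over 19.6 to 47.2 FPKM, Psme2 over 56.9 to 152 FPKM and Psme4 over 4.70 to 21.3 FPKM over all libraries. Their differences without library 2 were 0.0021 (SE 0.16, adjusted p = 0.995), -0.15 (SE 0.16, adjusted p = 0.556) and 0.23 (SE 0.11, adjusted p = 0.156). Psme2 and Psme2b are near-identical copies whose reads the counting could share, and Psme1 overlaps Emc9 on the other strand, so their values are uncertain.

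The 19S assembly helpers, which chaperone the base and are not part of the finished particle, did not pass the test in any of the 6 comparisons with all libraries at equal weight. With library weights Psmd9 passed as higher on ethanol in WT and as lower in LKO than WT on ethanol and in the interaction, and Psmd5 passed as higher over both genotypes and in WT with the side term. Psmd5 ranged over 3.89 to 14.7 FPKM and Psmd9 over 13.2 to 31.5 FPKM over all libraries, and their differences over both genotypes were 0.051 (SE 0.24, adjusted p = 0.940) and 0.17 (SE 0.16, adjusted p = 0.607). Psmd9 lies across the liver gene Hpd on the other strand, which averaged 1261 FPKM against 18.7 FPKM for Psmd9, and its values may hold reads of it. The same holds for Psmd5 with Cutal (13.8 against 9.66 FPKM on average) and for the lid gene Psmd13 with Sirt3 (42.9 against 40.2 FPKM), which also lie on opposite strands.

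With libraries at equal weight no subunit gene passed the test between LKO and WT on either diet. With library weights Psmb8, Psmd9 and Psme1 passed as lower in LKO than in WT on ethanol, as did 27.9% of all genes. On the control diet 0 of 42 differed between LKO and WT with limma (0.0% of all genes were higher and 0.00885% lower), and 0 had an unadjusted p under 0.05, against 3.45%. The difference was above 0 for 37 of 42 with a median of 0.14, against -0.10 over all genes, and no gene had groups without overlap, against 1.61% of all genes wholly higher and 7.64% wholly lower. On ethanol 0 of 42 differed (0.0354% higher, 0.0443% lower), and 2 had an unadjusted p under 0.05, against 11.9%. These were Psmb8 at -0.97 (SE 0.44, adjusted p = 0.406) and Psmb10 at -1.19 (SE 0.47, adjusted p = 0.350), which were -0.31 (SE 0.19, adjusted p = 0.384) and -0.51 (SE 0.23, adjusted p = 0.270) without WT ethanol library 2. The interaction for Psmb10 was -0.55 (SE 0.31, adjusted p = 0.968) without that library and did not pass.

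Other genes of the pathway were read from a list of 28, all tested. With all libraries 0 of the 28 passed in any comparison, and those with the smallest p over both genotypes were Nploc4, Adrm1 and Ube3c, at differences of 0.51, 0.55 and 0.36 with adjusted p of 0.0715, 0.131 and 0.196. The median of the list was 0.10 against 0.02 for all genes. Without WT ethanol library 2, 5 of 28 rose, against 14.8% of all genes, namely Nploc4 by 0.52, the assembly chaperone gene Psmg4 by 0.49, the ubiquitin ligase gene Ube3c by 0.45, the shuttle gene Rad23b by 0.45 and Zfand5 by 0.33. Of 19 genes of the interferon gamma response and class I antigen presentation, 18 were tested (not Ciita), and none passed with all libraries. Without WT ethanol library 2, H2-D1, a class I heavy chain gene, rose by 0.50 over both genotypes, and the median of the list was 0.02 against 0.11 for all genes.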

How the data were processed

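RNA of 16 mouse liver libraries in 4 groups of 4 was analysed from 1 table of FPKM values that the authors deposited, with 1 value per gene and library. The submitters' processing notes name fastp, STAR 2.6.1, HTSeq, DESeq2 and the build mm10. The annotation, the strand setting and the rule for gene length are not given in the sources used here. Symbols, biotypes and positions came from GENCODE mouse release M21 (GRCm38) for 34490 of 35275 IDs. FPKM steps gave whole reads within 0.1 read for 100% of values in 20520 genes, from which the library totals were taken. The deposited values are normalized, so log2(FPKM + 1) was tested and no count model was the main test.

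Genes with FPKM of at least 1 in at least 4 libraries (11298) were fitted with limma 3.58.1 in R 4.3.3 (group means of 16 libraries, 12 residual degrees of freedom, trended empirical Bayes, two-sided). The p-values were adjusted by Benjamini-Hochberg over all genes fitted. The design had foreseen this test for FPKM values. The script was tested on simulated data. Comparisons were ethanol against control in WT, in LKO and over both, LKO against WT on each diet, and the interaction. Alternatives were the pseudocount (0.1), no filter, 3 scalings, library weights, the side term and leaving out each library. The groups came from the treatment labels, and library numbers follow the order of the records.

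The subunit genes, the lists of pathway genes and the cell markers were chosen with earlier results of these data known. Named with values are the immune and constitutive catalytic genes, Psme1 to Psme4, any subunit gene called in the 4 comparisons of 2 groups or the interaction, and in each remaining class the 2 genes with the smallest p for ethanol over both genotypes. Psmc4, Psmd1, Psmd3, Psmd7, Psmd12, Psmd13 and Psmd14 among others are named beside counts, after their values were seen. Promoter sequences are those of RefSeq on GRCm38.p6. The leukocyte list was summed without 1 of its genes, which is not reported here.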

Additional observations from a re-analysis of the deposited data

Results flagged for a closer look

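Of 88 groups of 4 libraries (22 named genes in 4 groups), 10 held a library whose gap to the nearest of the others was too large a share of the group's whole range by Dixon's test at the 95% level. A rate of about 1 in 20 holds for independent groups of normal values. These are FPKM values of genes in the same 16 libraries, so the 10 were not weighed against it. In WT ethanol library 2 these were Psmb8 at 60.4 FPKM (the others 7.195 to 10.3), Psmb10 at 228 FPKM (29.8 to 39.5) and Psmb6 at 356 FPKM (118 to 145). In LKO control library 4, Psme1 stood at 35.6 FPKM (30.2 to 31.0), Psmc5 at 55.2 FPKM (42.6 to 43.5) and Psmd11 at 28.6 FPKM (22.04 to 22.8). In WT controls, Psmb8 stood at 11.5 FPKM in library 4 (7.36 to 7.89), Psmb9 at 4.44 FPKM in library 3 (8.92 to 9.16) and Psmb5 at 93.5 FPKM in library 2 (81.4 to 82.3). Psme3 stood at 13.9 FPKM in LKO ethanol library 1 (21.6 to 22.7 in the others).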

How the results depend on the processing

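No paired analysis was possible because the groups share no number in the labels. The titles hold numbers of their own, some of which are consecutive across diets, but no label ties them to a pairing. Calls of the 42 subunit genes are given with the shares of all genes called higher and lower. Over both genotypes, 2 were called (4.59% and 3.19%), against 1 with no filter on low values (1.64% and 0.997%), 3 with upper quartile scaling (5.71% and 5.82%), 6 with quantile normalization (6.52% and 6.33%), 13 with library weights, 2 of them lower (28.0% and 8.71%), 25 with the side term, 1 of them lower (23.3% and 9.32%), 10 with quantile normalization without WT ethanol library 2, 1 of them lower (10.2% and 9.73%, chosen after seeing the data), and 0 to 13 with 1 library left out. In WT the count of 0 became 2 with quantile normalization, 16 with library weights, 20 with the side term and 3 with quantile normalization without library 2, all higher (4.16%, 31.3%, 15% and 5.12% of all genes), and 0 to 4 with 1 library left out. In LKO it became 2 lower with library weights (3.1%), 2 higher and 1 lower, so 3, with the side term (6.53% and 4.14%), 1 lower with quantile normalization without library 2 (2.05%), and 0 to 1 with 1 library left out. Library weights gave 3 lower calls for LKO against WT on ethanol (27.9%) and 1 for the interaction (3.81%). The cause of these moves was not tested. The side term was fitted without WT ethanol library 2, whose library weight was 0.0418. Fits that left out WT ethanol library 2 moved the median of all genes over both genotypes from 0.02 to 0.11, and the share of calls that were higher from 59.0% to 72.1%. That share was 50.8% with quantile normalization and 51.3% with it and without library 2.

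Differences over both genotypes that turned sign were, with library weights, the side term and quantile normalization without library 2 in this order, -0.10, -0.12 and -0.26 for Psmb8, -0.19, -0.017 and -0.015 for Psmb6, -0.34, -0.0048 and -0.054 for Psmb7, and 0.20, 0.24 and 0.097 for Psme4. With library weights alone they were 0.12 for Psme1, -0.018 for Psma7 and -0.035 for Psmd5. Psme2 turned to 0.0063 with quantile normalization and Psmd9 to -0.028 with quantile normalization without library 2. In WT, Psmb10 turned to -0.37, -0.25 and -0.46 under the first 3 settings in the order above, Psmb8 to -0.13 with quantile normalization without library 2, and Psmb9 to 0.036 with the side term. The ranges with 1 library left out were -0.12 to 0.36 for Psmb8, -0.049 to 0.21 for Psmb6, -0.062 to 0.18 for Psmb7, -0.15 to 0.0047 for Psme1, -0.15 to 0.036 for Psme2, -0.10 to 0.23 for Psme4, -0.055 to 0.22 for Psmd5 over both genotypes, and -0.29 to 0.68 for Psmb10 in WT.

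Of the other differences of named genes, 250 kept their direction and their side of the threshold under an alternative setting, 47 passed the threshold and 1 lost it (Psmd8 with no filter, adjusted p = 0.0667), and with 1 library left out the counts were 582, 13 and 19. Depth was about even apart from WT ethanol library 2, and the lowest genes (Psma8, Psmb11, Psmc3ip) were not tested.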
